A study of Jatropha curcas with 22 samples.

Results

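Jcr4S09196.10 and Jcr4S09196.20 are neighbouring gene models of the oil-bearing shrub Jatropha curcas, and both carry the short description "mta sah". They are the only models of their scaffold in the read count table, and 2 of its 57437 gene models. They were chosen by their measured levels: they take the largest share of reads in several leaf libraries and in severely droughted root. Their levels in leaf and in severely droughted root are therefore given as a description with no test. Tests on the pair itself are given for moderate drought and rewatering in root, which the choice did not name.

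The description points to the nucleosidases of 5'-methylthioadenosine (MTA) and S-adenosylhomocysteine (SAH). In plants, MTA is left over when S-adenosylmethionine is used to make ethylene, polyamines and nicotianamine, and an MTA nucleosidase cleaves it into adenine and methylthioribose, from which the Yang cycle rebuilds methionine. SAH, the product of methylation reactions, is removed in plants mainly by a separate hydrolase. Proteins of the same family also include the bark and vegetative storage proteins of poplar, which hold nitrogen in bark and leaf tissue, and some relatives are induced by wounding. Whether the pair encodes an enzyme, a storage protein or both is not given in the files. The identifiers of the table matched 0 entries of the reference gene table at hand, so no sequence or position of either gene is printed.

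Young leaves and root tips came from seedlings of the strain Cape Verde islands, 36 days old at the start, and their RNA gave 22 libraries in 11 groups of 2, with total counts of 37104762 to 82215677 reads. Moderate drought was 13 days without water, set against a watered control of day 13. Severe drought was 49 days without water and rewatered plants were taken at day 52, both set against watered controls labelled jointly as days 49 and 52, called late controls here. Day 0, before water was withheld, was analysed here for leaf. Each library was a pool of plants, 6 at days 0 and 49 and 3 at days 13 and 52, and the labels leave it unsaid for the late controls. The titles number the libraries of a group br1 and br2 without spelling this out, and no label used here says that they came from separate plants, so the spread behind each p-value may in part be technical. Rewatering lasted 3 days by the sample labels and 7 days by the written protocol. Severe drought and rewatering share their control libraries, so their values are not independent.

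All levels below are CPM (the usual abbreviation for reads of a gene scaled to a common library total), given as replicate 1 and replicate 2 or as mean ± SD with n = 2 libraries. CPM is not corrected for gene length, and it compares a gene between groups. A fold of a level is a ratio of group means. The reads were 50 bases long, carried no strand, and no source used here says how reads that fit several genes were treated. Since the similarity of both genes is unknown, some reads could have been assigned to either gene. In bulk tissue, fewer cells with a transcript and less of it per cell cannot be told apart.

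Leaf markers (47 genes of the Rubisco small chain, chlorophyll-binding proteins and photosystems) summed to 13562 to 24157 CPM in leaf libraries and to 104 to 287 CPM in root libraries. In severely droughted root the sum was 188 to 232 CPM, above the late root controls at 111 to 151 CPM without overlap, while watered root at day 13 had 190.4 to 287 CPM. Root markers (10 genes) summed to 274 to 339 CPM in leaf and 339 to 694 CPM in root, with severely droughted root lowest among the roots at 339 and 372 CPM. The casparian strip genes, which mark the endodermis, summed to 0.362 and 0.539 CPM in severely droughted root, 2.67 and 10.9 CPM in late root controls, and 49.8 to 96.1 CPM in the other root libraries, against at most 0.393 CPM in leaf. High-affinity nitrate transporters were also lowest among roots under severe drought, at 11.9 to 19.9 CPM against 77.3 to 99.5 CPM in late controls. Leaf libraries had 5.56 to 21.3 CPM of them. The root cap gene went the other way, with 55.5 and 63.9 CPM under severe drought against 30.4 and 30.5 CPM in late controls, and 4 root hair genes summed to 271 to 288 CPM against 268 to 273 CPM. Root cap and root hair did not separate the organs in these data. The root cap gene had 42.6 to 72.4 CPM in leaf and 27.8 to 63.9 CPM in root. The root hair genes summed to 210 to 284 CPM in leaf and 268 to 362 CPM in root. In the tissue labelled root tip under severe drought, nitrate transport thus lay within the leaf range. The casparian strip genes there were close to the highest leaf value, with 1 library below it and 1 above. What part these markers and the leaf markers have in the levels of the pair was not tested.

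Under severe drought Jcr4S09196.10 took more reads than any other gene in root. Jcr4S09196.10 alone took 2.89% and 3.98% of all reads in severely droughted root, against 0.0519% and 0.0442% in late root controls, and it ranked first by reads in both drought libraries. The next gene by reads, the late embryogenesis abundant protein Jcr4S00616.50, took 1.40% and 1.11% there. In deposited RPKM, which are per gene length, the order of these 2 genes turned in replicate 1. Jcr4S09196.10 had 7704.5 and 10591.6 RPKM in severely droughted root, and Jcr4S00616.50 had 10591.6 and 7704.5 RPKM. Late embryogenesis abundant proteins are known for accumulating in drying seeds and drought-stressed tissue.

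As a level, Jcr4S09196.10 had 32172 and 43225 CPM in severely droughted root, against 485 and 421 CPM in late root controls. The groups were far from overlapping, and the mean level under drought was 83.2-fold that of the late control. Jcr4S09196.20 had 1939 and 3901 CPM in severely droughted root, against 14.4 and 19.8 CPM in late controls, a ratio of 171. It ranked 34 and 8 by reads in the drought libraries and 10925 and 9364 in the controls. Both genes were thus high in both drought libraries. Of the 24924 genes tested across the genome in this comparison, 45.1% were called changed (edgeR's quasi-likelihood test, adjusted p under 0.05), and nothing is read from the pair's place among them, since the comparison took part in its choice.

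Against watered root of day 13 the ratios were 1741 for Jcr4S09196.10 and 161 for Jcr4S09196.20. For Jcr4S09196.10 the ratio thus depended on the age of the control, and for Jcr4S09196.20 it hardly did. Jcr4S09196.10 had 485 and 421 CPM in late root controls, against 17.6 and 25.7 CPM in day 13 controls, a ratio of 20.9 between watered plants of different age. Jcr4S09196.20 had 14.4 and 19.8 CPM in late controls, against 14.2 and 22.01 CPM in day 13 controls, and those groups overlapped.

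After rewatering the root levels of severe drought were gone. Jcr4S09196.10 had 177 and 91.1 CPM in rewatered root, 281-fold lower by group means than in severely droughted root. Jcr4S09196.20 had 4.99 and 7.34 CPM in rewatered root, 474-fold lower than under severe drought and the lowest level of this gene in any group. These values rest on 206 and 405 reads, where 3 reads correspond to at most 0.0860 CPM, so counting error was small beside the spread between libraries.

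**Figure D1:**
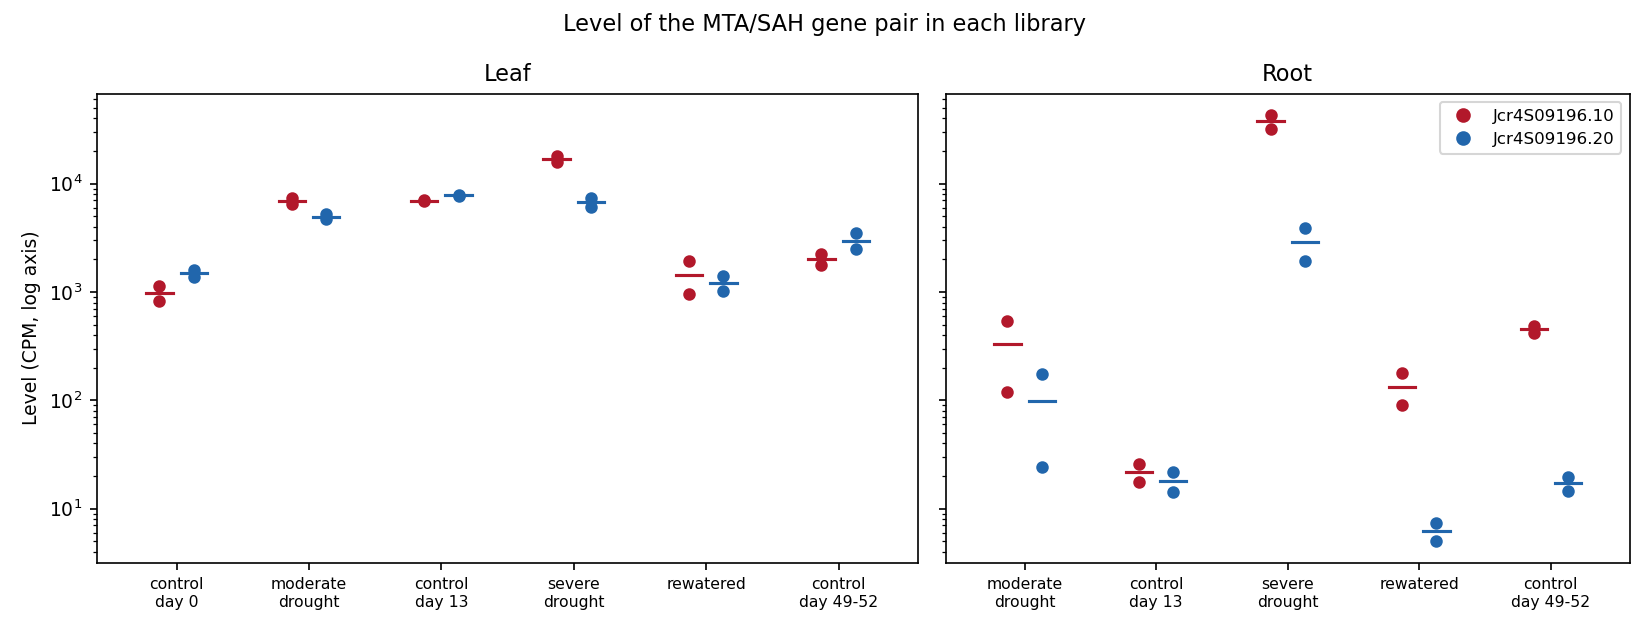
Level of Jcr4S09196.10 (red) and Jcr4S09196.20 (blue) in CPM (log axis) in each of the 22 libraries, leaf on the left and root on the right, with points for libraries and bars for group means. Leaf groups stay between 822 and 17855 CPM, whereas root libraries run between 4.99 and 43225 CPM.

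In leaf the pair was abundant in watered plants too, and its level depended on the day. Jcr4S09196.10 had 7036 and 6892 CPM in watered leaf at day 13, against 822 and 1133 CPM at day 0, a ratio of 7.12. Jcr4S09196.20 had 7738 and 7931 CPM at day 13, against 1384 and 1607 CPM at day 0, a ratio of 5.24. At day 13 Jcr4S09196.20 ranked first and Jcr4S09196.10 second by reads in both watered leaf libraries, ahead of all photosynthesis genes. Per gene length this order did not hold. In deposited RPKM the chlorophyll-binding protein Jcr4S04772.50 had 10591.6 in both libraries. Jcr4S09196.20 had 7704.5 RPKM in both, and Jcr4S09196.10 had 5744.1 and 5006.8 RPKM. By days 49 and 52, watered leaf was 3.47-fold lower than at day 13 in Jcr4S09196.10 and 2.62-fold lower in Jcr4S09196.20.

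Under severe drought Jcr4S09196.10 had 15976 and 17855 CPM in leaf, against 2240 and 1772 CPM in late leaf controls, 8.43-fold the control mean. It ranked first by reads in both drought libraries, with 1.65% and 1.79% of all reads. Jcr4S09196.20 had 6081 and 7443 CPM in severely droughted leaf, against 3488 and 2491 CPM in late controls, a ratio of 2.26. Neither gene's groups overlapped, and the ratio was larger for Jcr4S09196.10. In this comparison 57.1% of the 23200 genes tested were called, and again nothing is read from it for the pair.

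The choice of control mattered in leaf. Set against watered leaf of day 13, severely droughted leaf had 2.43-fold the level of Jcr4S09196.10, whereas Jcr4S09196.20 was lower in severe drought, at 0.863 of the day 13 level. Jcr4S09196.20 thus lay above the late watered leaves and below the early watered leaves, with no overlap with either.

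Under moderate drought in leaf the mean of Jcr4S09196.10 was close to that of the control. It had 7323 and 6504 CPM in moderately droughted leaf, against 7036 and 6892 CPM in the day 13 control, so that a drought library lay on either side of the controls. Jcr4S09196.20 was 1.58-fold lower, with 5217 and 4708 CPM in moderately droughted leaf against 7738 and 7931 CPM in the control, and the groups did not overlap. In this comparison 0.00431% of all 23200 genes tested were called (1 gene, by edgeR's quasi-likelihood test at an adjusted p under 0.05), with 2007 at an unadjusted p under 0.05 and 285 called by DESeq2.

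Rewatered leaf had lower levels than severely droughted leaf, 11.7-fold for Jcr4S09196.10 and 5.61-fold for Jcr4S09196.20. Jcr4S09196.10 had 966 and 1932 CPM in rewatered leaf, against 2240 and 1772 CPM in late controls, and the groups overlapped. Jcr4S09196.20 had 1017 and 1394 CPM in rewatered leaf, against 3488 and 2491 CPM in late controls, 2.48-fold lower without overlap, where 4.56% of all genes tested were called. Replicate 2 of rewatered leaf, the shallowest library of the series, had the higher level of both genes.

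Across the 11 groups, Jcr4S09196.10 was highest in severely droughted root (37699 ± 7815 CPM), followed by severely droughted leaf (16916 ± 1329 CPM). Watered leaf at day 13 (6964 ± 102 CPM) and moderately droughted leaf (6913 ± 579 CPM) came next and overlapped each other. The late leaf control (2006 ± 331 CPM), rewatered leaf (1449 ± 683 CPM) and day 0 leaf (977 ± 220.0 CPM) formed a chain in which neighbours overlapped. Below every leaf group lay the late root control (453 ± 45.7 CPM), moderately droughted root (332 ± 302 CPM) and rewatered root (134 ± 60.8 CPM), again with overlap between neighbours. Watered root at day 13 (21.7 ± 5.72 CPM) was lowest and stood apart from the group above it.

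Jcr4S09196.20 kept another order. Its highest group was watered leaf at day 13 (7834 ± 137 CPM), then severely droughted leaf (6762 ± 963 CPM) and moderately droughted leaf (4963 ± 360.1 CPM), none of which overlapped its neighbour. The late leaf control (2989.8 ± 705 CPM) and severely droughted root (2920.2 ± 1387 CPM) overlapped, as did day 0 leaf (1495 ± 158 CPM) and rewatered leaf (1205 ± 267 CPM). Moderately droughted root (98.8 ± 106 CPM) was followed by the day 13 root control (18.1 ± 5.51 CPM) and the late root control (17.1 ± 3.79 CPM), which overlapped, and by rewatered root (6.17 ± 1.66 CPM). Across the 11 group means the log2 levels of both genes had a Pearson r of 0.861, given as a description of groups that share organs and library totals.

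The gap between the organs varied with treatment and day. At day 13, watered leaf had 322-fold the root level of Jcr4S09196.10 and 433-fold that of Jcr4S09196.20. Under moderate drought the ratios of leaf to root were 20.8 and 50.2, after rewatering 10.8 and 195, and in late controls 4.43 and 175. Under severe drought, leaf was 2.23-fold lower than root in Jcr4S09196.10 and 2.32-fold higher in Jcr4S09196.20. The level of Jcr4S09196.10 in severely droughted root thus exceeded that in severely droughted leaf. Leaf markers were at 188 to 232 CPM in that root and at 14757 to 15745 CPM in that leaf. What part they have in the level of the pair was not tested.

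The reads of the pair came from Jcr4S09196.10 to a smaller mean share in leaf than in root. It gave 51.6% ± 12.2 of the pair's reads in leaf (SD over 6 group means) and 83.7% ± 17.6 in root (SD over 5 group means). The difference was -32.0 percentage points, leaf minus root, and -29.7 points with the severely droughted root left out. It is a description with no test, since the leaf levels took part in the choice of the genes and the groups of an organ, which differ in treatment and day, are not replicates of it.

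Within leaf, the share from Jcr4S09196.10 was highest under severe drought, at 72.4% and 70.6%, against 39.1% and 41.6% in late controls. Moderately droughted leaf had 58.4% and 58.0%, against 47.6% and 46.5% in the day 13 control. Rewatered leaf had 48.7% and 58.1%, and day 0 leaf had 37.3% and 41.3%. Neither drought group overlapped its control in this share, and no other leaf library reached the share of severe drought.

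Within root, the share was high in all groups but the day 13 control. It was 94.3% and 91.7% under severe drought and 97.3% and 92.5% after rewatering, against 97.1% and 95.5% in late controls. Moderately droughted root had 75.9% and 83.1%, against 55.3% and 53.9% in the day 13 control. Severe drought thus had a share of Jcr4S09196.10 above the late control in leaf and below it in root. In deposited RPKM the mean share was 51.4% ± 13.98 in leaf and 82.2% ± 16.9 in root. The top genes hold the same few RPKM values in every library, so this is no separate measure corrected for gene length. Both severely droughted leaf libraries had 73.1% by RPKM, and both moderately droughted leaf libraries 59.6%. Severely droughted root had 87.8% and 81.7% by RPKM, below its share of reads.

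**Figure D2:**
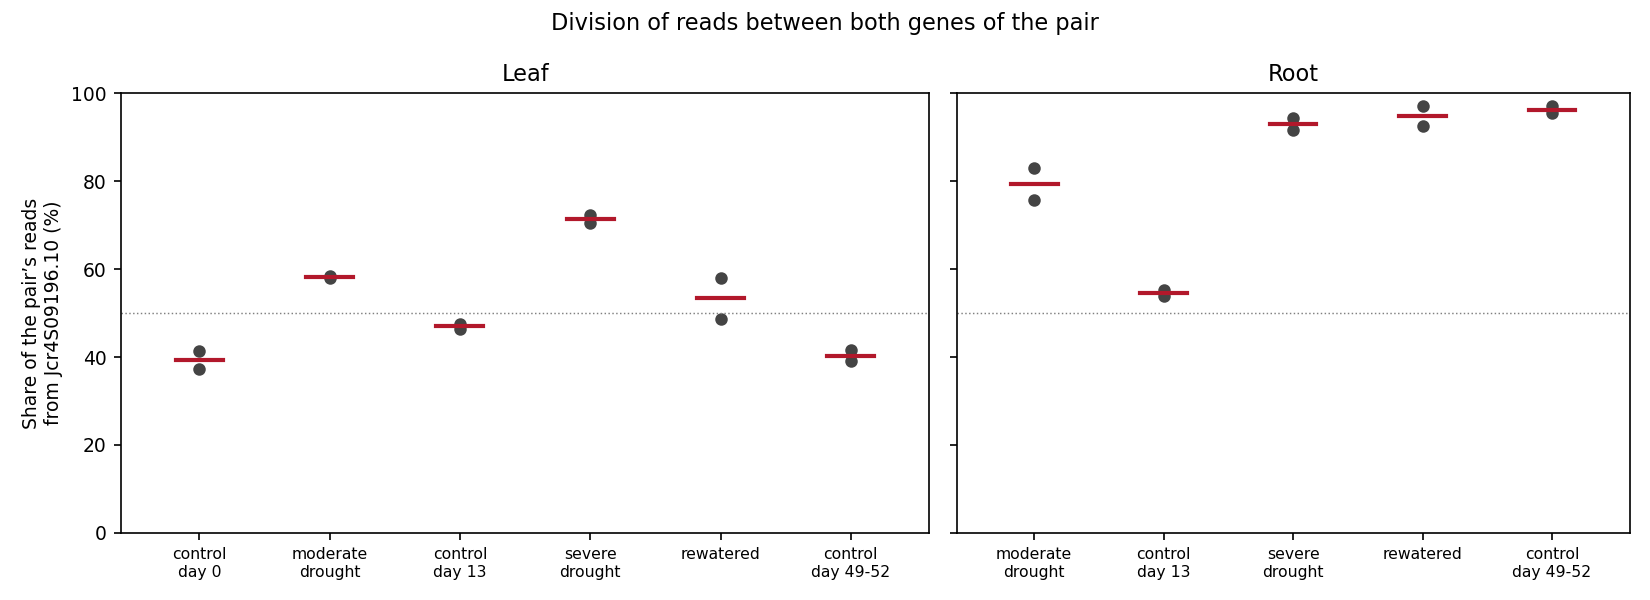
Share of the pair's reads that came from Jcr4S09196.10 (percent) in each library of leaf (left) and root (right), with points for libraries, bars for group means and a dotted line at equal shares. In root, 4 of the 5 groups lie above all leaf libraries, and the day 13 root control, at 55.3% and 53.9%, lies among them.

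Moderate drought in root gave the first test on the pair. Jcr4S09196.10 had 545 and 118 CPM in moderately droughted root, against 17.6 and 25.7 CPM in the day 13 control. Both drought libraries were above both controls, and they differed from each other several-fold. The fitted log2 fold change was 3.97 ± 0.72 (SE), with an adjusted p of 0.040 in edgeR's quasi-likelihood test. In that comparison 2.74% of the 24924 genes tested were called, 1.98% higher and 0.754% lower. Without replicate 1 of moderately droughted root the log2 fold change was 2.48 and the adjusted p 0.13, and the call was also lost without replicate 1 of the day 13 control (adjusted p = 0.055) and without its replicate 2 (adjusted p = 0.16).

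Jcr4S09196.20 had 174 and 24.1 CPM in moderately droughted root, against 14.2 and 22.01 CPM in the day 13 control. The lower drought library lay just above the controls. Its log2 fold change of 2.48 ± 0.82 (SE) had an adjusted p of 0.13 by edgeR and did not pass the threshold, whereas DESeq2 gave 2.45 with an adjusted p of 0.0062, and edgeR without replicate 2 of moderately droughted root gave 3.29 with an adjusted p of 0.022. Replicate 1 of moderately droughted root was thus the library with the high level in both genes.

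In rewatered root against the late control neither gene passed the test. Jcr4S09196.10 had 177 and 91.1 CPM in rewatered root, against 485 and 421 CPM in the late control, and a log2 fold change of -1.73 ± 0.66 (SE) with an adjusted p of 0.11 by edgeR. DESeq2 gave -1.75 with an adjusted p of 0.015. Set against the day 13 root control the sign turned, with a log2 fold change of 2.68 and an adjusted p of 0.12 by edgeR. Jcr4S09196.20 had 4.99 and 7.34 CPM in rewatered root, against 14.4 and 19.8 CPM in the late control, with a log2 fold change of -1.44 ± 0.80 (SE) and an adjusted p of 0.25 by edgeR. Of all genes tested, 17% were called in this comparison, with 8.53% higher and 8.44% lower, and with the day 13 control in place of the late control 10 genes were called.

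The table holds 5 further models described as "mta sah", none of which reached the levels of the pair in leaf. Jcr4S19790.20 was the steadiest, with 37.2 to 106 CPM over the 22 libraries. It had 44.1 and 37.2 CPM in severely droughted leaf, against 61.5 and 73.8 CPM in late controls, and fell by 0.76 ± 0.13 (SE) on the log2 scale (adjusted p = 0.00074, edgeR). In severely droughted root it had 49.3 and 45.4 CPM, against 58.3 and 63.9 CPM in the late control, with a log2 fold change of -0.42 ± 0.18 (SE) that did not pass (adjusted p = 0.096, edgeR). Where the pair stood at its highest, this gene was thus lower or not called. Per gene length, Jcr4S09196.10 had 490.2 to 10591.6 RPKM in the leaf libraries of the deposited table, against 50.7 to 104.8 RPKM for Jcr4S19790.20 in all libraries. In watered root at day 13 the order was turned, with 14.9 and 20.9 RPKM for Jcr4S09196.10 and 12.1 and 18.1 RPKM for Jcr4S09196.20, against 85.9 and 98.7 RPKM for Jcr4S19790.20.

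Another 3 of these models, Jcr4S02557.10, Jcr4S05176.10 and Jcr4S09433.20, were rare and rose in severely droughted leaf, where 27.6% of all genes tested were called higher and 29.5% lower. Jcr4S02557.10 had 3.31 and 14.4 CPM in severely droughted leaf, against 0.757 and 0.647 CPM in the late control, or 3.63 ± 0.80 (SE) as a log2 fold change (adjusted p = 0.0032, edgeR). Jcr4S05176.10 had 6.62 and 17.97 CPM in drought, against 0.715 and 1.17 CPM in the control, and Jcr4S09433.20 had 5.85 and 25.1 CPM, against 1.16 and 1.29 CPM. Their log2 fold changes were 3.69 ± 0.53 and 3.64 ± 0.93 (SE), with adjusted p of 0.00021 and 0.0080 by edgeR. In all 3, replicate 2 of severely droughted leaf was well above replicate 1, while the pair's drought libraries lay close together.

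In severely droughted root those 3 genes stayed near 0. Jcr4S05176.10 averaged 0.253 CPM in severely droughted root and 0.153 CPM in the late control, and was not called. In rewatered root it had 9.03 and 2.95 CPM, against 0.0373 and 0.269 CPM in the late control, and rose by 5.35 ± 0.96 (SE) on the log2 scale (adjusted p = 0.016, edgeR). Jcr4S02557.10 had 13 and 20 reads in rewatered root and 0 reads in both late controls, and was called higher (adjusted p = 0.033, edgeR). In the same comparison neither gene of the pair was called, with levels below the late control, and the difference from the pair was not tested. With the day 13 control in place of the late one 10 genes of the whole table were called in rewatered root, and without replicate 2 of the late control 0 genes were called, so these calls depend on the late control.

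The remaining model, Jcr4S01857.50, was found mainly in leaf, with at most 0.199 CPM in rewatered root and late root controls. It had 2.54 and 2.20 CPM in severely droughted leaf and 1.10 and 1.33 CPM in rewatered leaf, against 4.94 and 7.79 CPM in the late leaf control. It fell in both comparisons, by 1.45 ± 0.27 and 2.38 ± 0.28 on the log2 scale (SE, adjusted p = 0.0010 and 0.0024, edgeR). In rewatered leaf 0.772% of all genes were called higher and 3.79% lower. Jcr4S08783.20, described as a deaminase of MTA and SAH and not as a nucleosidase, stayed between 3.15 and 8.98 CPM in all libraries and rose by 0.69 ± 0.20 (SE) in severely droughted leaf (adjusted p = 0.013, edgeR).

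Of 7 models described as bark storage protein, 4 had at most 50 reads in any library. Jcr4S01385.70 had 7.14 and 3.72 CPM in severely droughted leaf, against 52.4 and 76.3 CPM in late leaf controls, and fell by 3.60 ± 0.28 (SE) on the log2 scale (adjusted p = 2.6e-06, edgeR). It also fell in severely droughted root, with 0.273 CPM on average against 7.47 CPM in the late control (log2 -4.80 ± 0.99 SE, adjusted p = 0.0065, edgeR). Jcr4S03341.20 moved the other way in leaf, with 52.6 and 147 CPM in severely droughted leaf against 7.00 and 14.1 CPM in the late control (log2 3.22 ± 0.56 SE, adjusted p = 0.00091, edgeR). In severely droughted root it averaged 2.50 CPM and 1.70 CPM in the late control and was not called, whereas in rewatered root it had 69.6 and 25.8 CPM and rose by 4.85 ± 0.91 (SE, adjusted p = 0.017, edgeR). The third model above 50 reads, Jcr4S03016.30, had 1.54 and 5.08 CPM in severely droughted leaf, against 0.294 and 0.264 CPM in the late control. Of 3 bark storage models tested in severely droughted leaf, 2 were higher and 1 lower, where 27.6% of all genes were called higher and 29.5% lower. Of 3 tested in severely droughted root, 1 was called, and it was lower, where 25.6% of all genes were called lower.

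**Figure D3:**
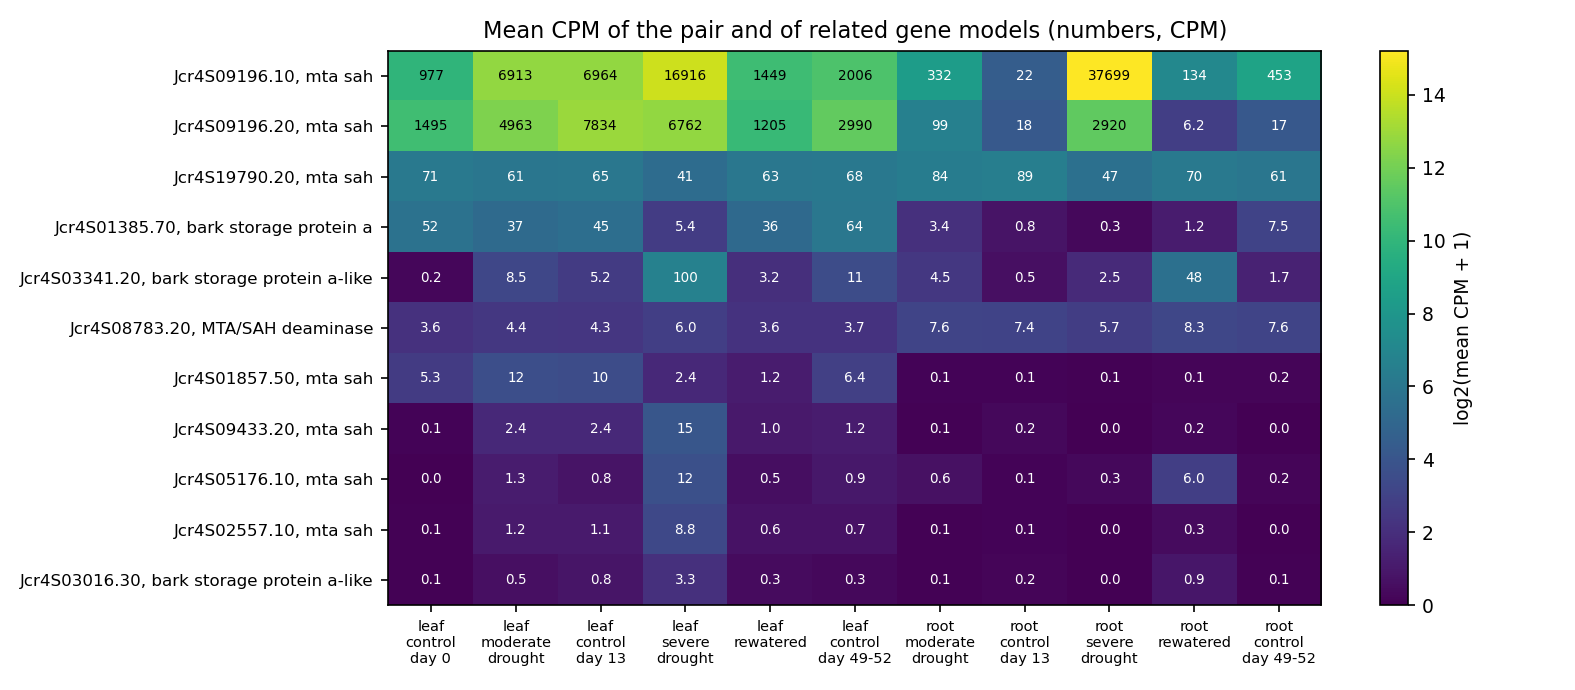
Mean CPM (numbers in cells, colour as log2 of mean CPM plus 1) of the pair, of the 5 other models described as mta sah, of the deaminase and of 3 bark storage models, in the 11 groups. The pair reaches 37699 CPM, whereas the highest group mean among the others is 99.9 CPM, for Jcr4S03341.20 in severely droughted leaf, drawn as 100.

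The storage and wound list (51 models of bark and vegetative storage proteins, 2S albumin, legumin, vicilin, patatin, stem-specific and wound-related descriptions) was mixed under drought. Of 32 tested in severely droughted leaf, 12 were higher and 15 lower, where 27.6% of all genes were called higher and 29.5% lower, with a median log2 fold change of -0.55, against 0.03 over all genes. Of 36 tested in severely droughted root, 5 were higher and 6 lower, with a median of -0.32, against -0.04 over all genes, where 19.5% were called higher and 25.6% lower. In rewatered root 9 were higher and 0 lower by edgeR, where 8.53% of all genes were called higher and 8.44% lower, with a median of 0.80 against 0.02 over all genes, while 17 passed at an unadjusted p under 0.05 in either direction, DESeq2 called 12 in either direction, and the day 13 control gave 0 calls. Those 9 calls became 0 without replicate 2 of the late root control, 1 without its replicate 1 and 2 without replicate 2 of rewatered root. The vegetative storage model Jcr4S11285.10 rose in severely droughted leaf (16.3 CPM against 1.57 CPM in the late control, adjusted p = 0.00033, edgeR) and in rewatered root (8.63 CPM against 0.189 CPM, adjusted p = 0.015, edgeR). The pattern for 2S albumin also takes in lipid-transfer proteins, so the list is not made of storage proteins alone.

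The enzymes around the pair's namesake substrates were read through a list of 58 models, the pair left out, covering the synthesis and use of S-adenosylmethionine, the Yang cycle and the removal of SAH. In severely droughted leaf 15 of 42 tested were higher and 15 lower, with a median log2 fold change of 0.18, against 0.03 over all genes. In severely droughted root 4 of 47 were higher and 14 lower, with a median of -0.46, or -0.42 with genes at 0 in a group set to the level of 3 reads, against -0.04 over all genes. The share called was 71.4% in leaf and 38.3% in root, where 57.1% and 45.1% of all genes were called. No isomerase of methylthioribose phosphate was found among the descriptions.

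Among enzymes that make S-adenosylmethionine and return homocysteine to methionine, the most abundant models fell in both organs under severe drought. Of 4 S-adenosylmethionine synthetases tested, 3 were lower in leaf and 2 in root, and of 5 methionine synthases 3 were lower and 1 higher in each organ. Of all genes tested, 29.5% were called lower and 27.6% higher in leaf, and 25.6% lower and 19.5% higher in root. The S-adenosylmethionine synthetase Jcr4S02833.80 averaged 213 ± 67.1 CPM in severely droughted leaf and 1163 ± 107 CPM in the late control, and fell by 2.47 ± 0.21 (SE) on the log2 scale in leaf (adjusted p = 5.2e-06, edgeR). In root it averaged 351 ± 21.1 CPM under severe drought and 877 ± 78.5 CPM in the late control, and fell by 1.37 ± 0.23 (SE, adjusted p = 0.0026, edgeR). Methionine synthase Jcr4S00611.150, which methylates homocysteine, fell by 2.89 ± 0.20 in leaf and 1.86 ± 0.25 in root (SE, adjusted p = 1.3e-06 and 0.00098, edgeR). A further model of that step, the homocysteine methyltransferase Jcr4S00230.70, went the other way, rising to 274 ± 14.1 CPM in severely droughted root, against 25.4 ± 13.0 CPM in the late control (adjusted p = 0.0028, edgeR).

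The models for the removal of SAH fell as well. The hydrolase Jcr4S03304.40, which splits SAH into homocysteine and adenosine, averaged 449 ± 110.1 CPM in severely droughted leaf and 2007 ± 597 CPM in the late control. It fell by 2.19 ± 0.25 in leaf and by 1.07 ± 0.24 in root (SE, adjusted p = 4.6e-05 and 0.0089, edgeR). Adenosine kinase Jcr4S10688.20, which takes up the adenosine formed, fell by 2.49 ± 0.25 in leaf and by 1.89 ± 0.22 in root (SE, adjusted p = 1.8e-05 and 0.00059, edgeR).

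Steps that release MTA, and the S-adenosylmethionine decarboxylase step that supplies polyamine synthesis, moved in several directions. Of the ACC synthases, 3 of 4 tested were higher in leaf and 1 of 6 in root, where 27.6% and 19.5% of all genes were called higher. The ACC synthase Jcr4S00171.110, which makes the ethylene precursor and sets MTA free, rose by 0.99 ± 0.14 in leaf and by 1.03 ± 0.13 in root (SE, adjusted p = 0.00017 and 0.00077, edgeR). The S-adenosylmethionine decarboxylase Jcr4S00221.80, which supplies polyamine synthesis, rose by 1.41 ± 0.26 in leaf (SE, adjusted p = 0.00095, edgeR), while its 0.83 ± 0.31 in root did not pass (adjusted p = 0.059, edgeR). Of the decarboxylases, 2 of 3 tested were higher in leaf and 2 of 4 in root, where again 27.6% and 19.5% of all genes were called higher. Their median log2 fold change was 0.70 in leaf and 0.85 in root. Spermidine synthase Jcr4S02827.30 fell by 1.35 ± 0.17 in leaf (SE, adjusted p = 8.5e-05, edgeR) and stood at 0.16 ± 0.18 in root, not called. Nicotianamine synthase Jcr4S02283.50 fell by 1.35 ± 0.41 in root (SE, adjusted p = 0.029, edgeR) and had 0.20 ± 0.40 in leaf, not called.

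Of the most abundant models of 3 steps after MTA cleavage, 1 fell and the others were not called. Methylthioribose kinase Jcr4S01714.20, which acts on the sugar that an MTA nucleosidase releases, averaged 126 ± 10.9 CPM in severely droughted leaf and 101 ± 13.3 CPM in the late control, or 0.30 ± 0.13 (SE) as a log2 fold change (adjusted p = 0.070, edgeR). In root it averaged 123 ± 13.5 CPM under severe drought and 116 ± 7.42 CPM in the late control. Enolase-phosphatase Jcr4S00177.170, a later step of the Yang cycle, fell by 1.12 ± 0.13 in leaf and by 0.68 ± 0.19 in root (SE, adjusted p = 4e-05 and 0.024, edgeR). Acireductone dioxygenase Jcr4S00724.120, the step before methionine is formed again, had 0.16 ± 0.19 in leaf and 0.28 ± 0.15 in root and was not called in either. Of all genes tested under severe drought, 27.6% were called higher and 29.5% lower in leaf, and 25.6% lower in root. Beside these shares, ACC oxidases, which turn the precursor into ethylene, were higher in 4 and lower in 2 of 6 tested in leaf. Their median log2 fold change was 1.47 in leaf, and in root 3 of 8 were lower, with a median of -0.58. The model with the highest mean over all libraries, Jcr4S00253.60, owed that to root and was rare in leaf, at 0.705 CPM under severe drought and 2.37 CPM in the late control, where it fell by 1.78 ± 0.38 (SE, adjusted p = 0.0025, edgeR).

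**Figure D4:**
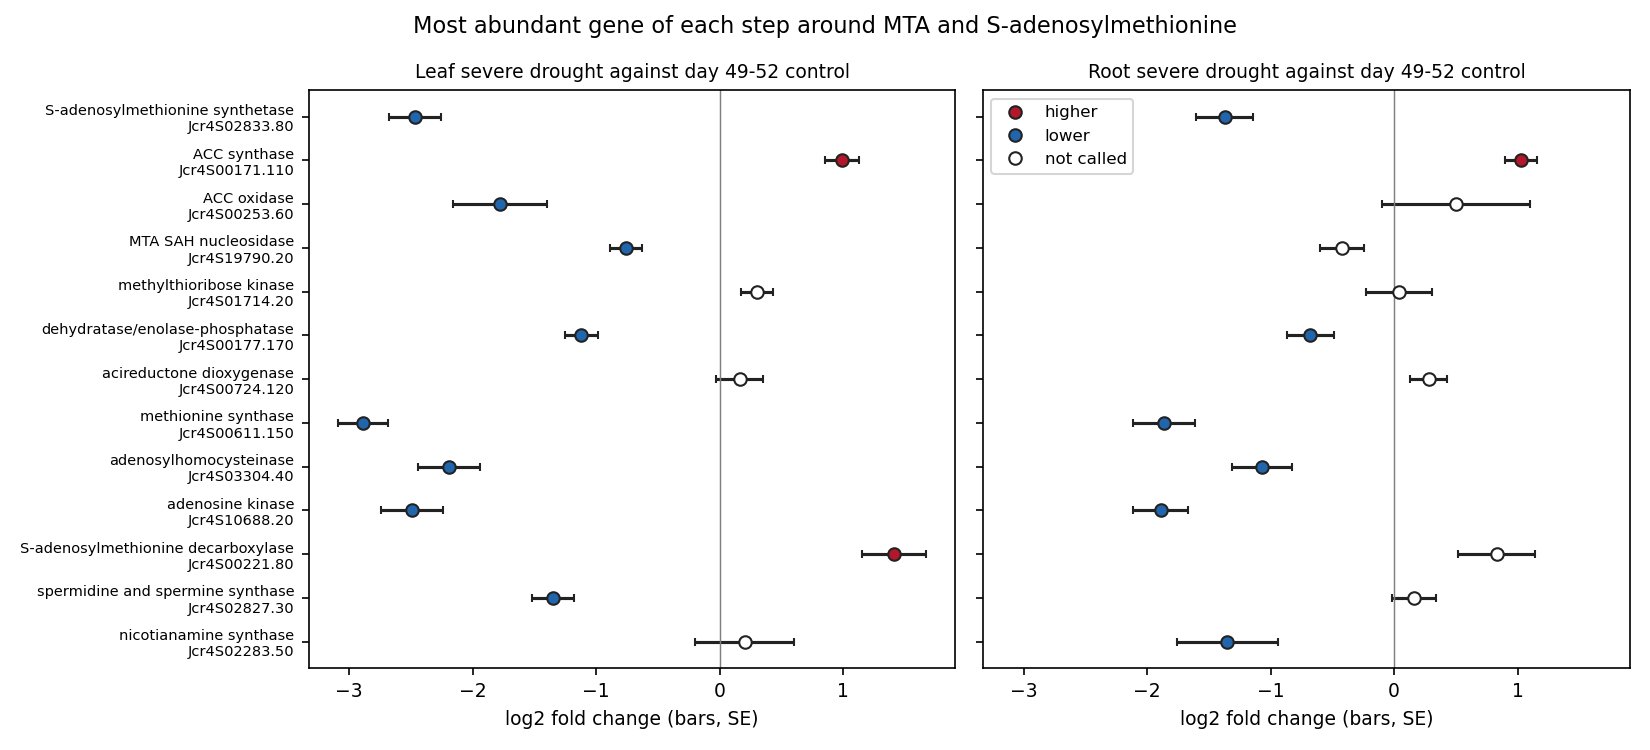
Log2 fold change of severe drought over the late control (points, with bars for SE) in leaf (left) and root (right) for the most abundant model of each step, the pair left out, with filled points for called genes and open points for those not called. S-adenosylmethionine synthetase, methionine synthase, SAH hydrolase and adenosine kinase are lower in both organs, between -1.07 and -2.89, and ACC synthase is higher in both, at 0.99 and 1.03.

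In the other comparisons fewer of these enzymes were called. Moderate drought called 0 of 42 in leaf by edgeR, with 7 at an unadjusted p under 0.05 and 0 by DESeq2. In root it called 3 of 47 higher, namely the S-adenosylmethionine decarboxylase Jcr4S03401.20, the nicotianamine synthase Jcr4S00112.230 and the thermospermine synthase Jcr4S15208.30, with log2 fold changes of 1.72 ± 0.24, 1.37 ± 0.20 and 2.24 ± 0.34 (SE). Of all genes tested, 2.74% were called in that comparison. Rewatered leaf had 1 of 42 higher and 3 lower, where 0.772% of all genes were called higher and 3.79% lower. Rewatered root had 9 of 47 higher and 4 lower, where 8.53% of all genes were called higher and 8.44% lower. In rewatered root ACC oxidase Jcr4S00253.60 rose to 772 ± 50.4 CPM, against 58.3 ± 22.8 CPM in the late control (adjusted p = 0.015, edgeR), and methionine synthase Jcr4S00611.150 to 2787 ± 776 CPM, against 1034 ± 50.1 CPM (adjusted p = 0.014, edgeR). Without replicate 1 of moderately droughted root or replicate 2 of its control 0 of these enzymes were called there, and without replicate 2 of the late root control 0 were called in rewatered root.

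Among 13571 gene models with a mean of at least 10 CPM, likeness to the summed level of the pair was measured as Pearson's r of log2(CPM + 1) over group means. Over the 11 groups the closest was the undescribed Jcr4S05234.10 (r = 0.971), with 31.4 and 44.5 CPM in severely droughted leaf, against 24.0 and 22.5 CPM in the late leaf control. In root it had 28.3 and 37.0 CPM under severe drought, against 14.3 and 13.8 CPM in the late control. Its range was much smaller than that of the pair. Next came an RNA-binding protein (Jcr4S00174.60, r = 0.959), a formamidopyrimidine-DNA glycosylase, which repairs oxidised bases (Jcr4S00050.100, r = 0.959), the undescribed Jcr4S03576.40 (r = 0.958) and Jcr4S02007.60 (r = 0.958), whose description names an animal muscle protein. Within leaf alone these genes had r of 0.75 to 0.866, and within root alone 0.968 to 0.993. They are the highest of 13571 coefficients against levels that took part in choosing the pair, so they are a description only.

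Within the 6 leaf groups the closest was the E3 ubiquitin ligase Jcr4S04262.50 (r = 0.997), which had an r of -0.489 over the 5 root groups. It had 37.7 and 37.4 CPM in severely droughted leaf, against 17.97 and 16.2 CPM in the late control, while in root it stayed between 28.5 and 47.1 CPM. It was followed by a transcription factor (Jcr4S03571.20, r = 0.988), a protein phosphatase (Jcr4S00052.190, r = 0.986), the undescribed Jcr4S00089.70 (r = 0.984) and a uracil phosphoribosyltransferase (Jcr4S00090.110, r = 0.983). Within the 5 root groups the closest were the splicing factor Jcr4S00488.60, Jcr4S07723.20, Jcr4S00541.10, Jcr4S00406.40 and Jcr4S00345.30, all with r of at least 0.999. Over the 6 leaf groups their r was, in that order, 0.72, -0.806, 0.40, -0.612 and -0.486, so several ran against the pair in leaf. With 5 or 6 points the highest of 13571 coefficients is a description only, and in root it leans on the severe drought group.

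In the libraries that a member did not lead, another gene did. The chlorophyll-binding protein Jcr4S04772.50 led both day 0 leaf libraries, replicate 1 of moderately droughted leaf, replicate 1 of rewatered leaf and both late leaf controls. The sucrose synthase Jcr4S00093.110 led replicate 2 of rewatered leaf, with 0.567% of reads. In root the leaders outside severe drought took 0.531% to 0.721% of reads, among them a plasma membrane aquaporin (Jcr4S09885.10) in both moderately droughted libraries. No other gene in any library reached the 2.89% that Jcr4S09196.10 took in replicate 1 of severely droughted root, and the largest was the 1.40% of the late embryogenesis abundant protein in that library.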

How the data were processed

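Per the labels' protocols, 400 ng of total RNA went into each unstranded TruSeq library before sequencing as single-end 50 base reads. The authors deposited whole-number read counts for each gene model, not normalized, and RPKM values. The lowest RPKM value is 1.0 and sorted columns differ by at most 0.7, as adding 1 and quantile normalisation would give; neither step, nor the aligner, build or counting program, is given in the sources used here. Such RPKM values hold the top genes to fixed rank values, so levels were taken from the counts. The members and gene lists were chosen with earlier results of these data known.

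Counts were fitted in R 4.3.3 with edgeR 4.0.16 (TMM, filterByExpr, robust quasi-likelihood F test, two-sided), over 12 leaf libraries (23200 genes) and 10 root libraries (24924 genes). Genes were called at a Benjamini-Hochberg adjusted p under 0.05 over all genes. Levels are CPM over totals scaled by TMM across all 22 libraries. DESeq2 1.42.0, limma 3.58.1 on log2(RPKM + 1) and log2(RPKM + 0.1), no filter, the pair left out of totals, the day 13 control, a replicate block and leaving out each library were alternatives. The permutation test planned for the division of reads between the pair is not given, since the levels behind it took part in the choice of the genes. The fits were also run on simulated data in which every gene of an organ had the same spread, and no result of that run is used here. Reads carry no molecular identifiers, so limits from counts cover counting error only.

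Named genes were the pair, all other models described as mta sah, methylthioadenosine or bark storage, the most abundant model of each listed step, the 5 closest in pattern over all, leaf and root groups, and the largest other gene of each group. Jcr4S00230.70, Jcr4S11285.10, Jcr4S03401.20, Jcr4S00112.230 and Jcr4S15208.30 were named after their values were seen.

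Libraries with the same replicate number did not deviate together (correlations of -0.427 to 0.324 in leaf and -0.331 to 0.211 in root), so the numbers were not taken as pairs. No pair of libraries agreed within sampling noise (the chi-square over its degrees of freedom was 12 to 156).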

Additional observations from a re-analysis of the deposited data

Results flagged for a closer look

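The group means of Jcr4S09196.20 lay on opposite sides of the control under moderate drought in the organs, and in root the change was not called by edgeR. In leaf its log2 ratio of group means, moderate drought over the day 13 control, was -0.66, with both drought libraries below both controls, and in root it was 2.45, with both drought libraries above both controls. The difference between the organs was not tested, the leaf levels are part of what chose the gene, and the root ratio leans on replicate 1 of moderately droughted root, which had 174 CPM beside 24.1 CPM in replicate 2.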

How the results depend on the processing

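The comparisons of severe drought kept their counts within 1.5 times under the alternative tests, filters and scalings, whereas those of moderate drought and rewatering moved. Without a filter on low counts, the genes called were 689 in moderately droughted leaf, 3558 in rewatered leaf, 4311 in moderately droughted root and 6809 in rewatered root, against 1, 1059, 682 and 4228 as reported. DESeq2 called 285, 2763 and 3162 in the first 3 of these. Limma on deposited RPKM plus 1 and plus 0.1 called 3 and 2 in moderately droughted leaf and 600 and 621 in rewatered leaf. The day 13 control gave 2411 in rewatered leaf and 10 in rewatered root. Leaving out 1 library gave 4 to 51 calls in moderately droughted leaf, 53 to 4582 in rewatered leaf, 2 to 4379 in moderately droughted root, 6781 to 7473 in severely droughted root and 0 to 3297 in rewatered root. The lowest counts came without replicate 2 of rewatered leaf, replicate 2 of the day 13 root control and replicate 2 of the late root control, the highest in rewatered leaf and moderately droughted root without replicate 1 of the controls.

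Enzymes of the methionine cycle list called without a filter numbered 4 in moderately droughted leaf, 12 in rewatered leaf, 17 in moderately droughted root and 25 in rewatered root. DESeq2 called 11 in rewatered leaf and 13 in moderately droughted root, and limma 1 and 2 in rewatered leaf. The day 13 control gave 9 in rewatered leaf, 28 in severely droughted root and 0 in rewatered root. Leaving out 1 library gave 0 to 16 in rewatered leaf, 0 to 14 in moderately droughted root and 0 to 13 in rewatered root.

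For the pair, deposited RPKM gave log2 ratios of 2.74 and 0.77 in severely droughted leaf (Jcr4S09196.10 and Jcr4S09196.20), -0.98 in moderately droughted leaf (Jcr4S09196.20) and 4.30 in severely droughted root (Jcr4S09196.10), where the top genes hold the same few values in every library. The day 13 control gave 1.28 and -0.21 in severely droughted leaf, -2.26 and -2.70 in rewatered leaf and 10.77 for Jcr4S09196.10 in severely droughted root. In moderately droughted root, leaving out 1 library gave 2.48 to 4.68 for Jcr4S09196.10 and 0.44 to 3.29 for Jcr4S09196.20, the last also with a value without a filter of 2.52 (adjusted p = 3.3e-23, edgeR) and 2.45 by DESeq2 (adjusted p = 0.0062). In rewatered root Jcr4S09196.10 had -1.67 without a filter (adjusted p = 1.2e-10, edgeR), -1.75 by DESeq2 (adjusted p = 0.015) and 2.68 against the day 13 control (adjusted p = 0.12, edgeR), and Jcr4S09196.20 had -1.37 without a filter (adjusted p = 1.5e-07, edgeR). The cause of the very small p without a filter was not tested.

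A replicate block gave 3 calls in moderately droughted leaf and a log2 fold change of 3.77 for Jcr4S09196.10 in moderately droughted root (adjusted p = 0.052, edgeR), and kept every other count within 1.5 times. The libraries share only a number, so the lost call is not read as a weaker effect. The division of reads stayed between -29.7 and -33.4 percentage points, leaf minus root, in all 5 alternatives, of which leaving out severely droughted root was chosen after seeing the data.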
